A study of Homo sapiens with 12 samples.

Results

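In all, 10 genes of the epithelial-mesenchymal transition were read in the MDA231 (MDA-MB-231) breast cancer line. They are the transcription factors SNAI2, ZEB1, ZEB2 and TWIST1, the epithelial adhesion genes CDH1 and EPCAM, the cadherins CDH2 and CDH11, and the mesenchymal genes VIM and FN1. Members were all probe sets whose annotated symbol is 1 of these 10 genes, which gave 29 probe sets of the 54613 on the array that are not controls. A probe set is a group of short oligonucleotides that is read as a single value. Of the 29, 18 passed a filter on dim signal (above the array's median on at least 3 arrays), and they covered 8 of the 10 genes. CDH1 and TWIST1 had no probe set above the filter.

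The study holds 12 arrays in 4 groups of 3, all of the same human line, which derives from a triple-negative breast carcinoma. Cells with a scramble hairpin served as control (scramble), and cells with that hairpin plus ETX made up another group. The labels do not spell out ETX, which is taken to be etomoxir, a drug that blocks CPT1. Of the remaining groups, shCPT-1 had CPT1 knocked down and shCPT-2 had CPT2 knocked down, each by a lentiviral pGIPZ hairpin. CPT1 and CPT2 carry long-chain fatty acids across the mitochondrial membranes so that they can be oxidised. The dose and duration of ETX for the arrays, the targeted CPT1 isoform and the number of hairpins or clones were absent from the labels used here. No label says whether the 3 arrays per group are separate cultures, so p-values reflect array-to-array spread alone, possibly a technical one.

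The epithelial-mesenchymal transition is the programme by which cells give up E-cadherin junctions and take on a motile shape with a vimentin cytoskeleton. The Snail family member Slug (SNAI2), the zinc finger homeobox proteins ZEB1 and ZEB2, and the helix-loop-helix protein TWIST1 bind E-box motifs and repress epithelial genes such as CDH1. MDA-MB-231 is widely used as a line that already lies at the mesenchymal end of this axis.

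The knockdown labels and the cell type were checked first. The log2 intensity of CPT1A was 9.78 ± 0.12 in scramble (SD, n = 3) and 8.19 ± 0.13 in shCPT-1, and CPT2 had 7.41 ± 0.09 in scramble and 6.41 ± 0.19 in shCPT-2. All 7 listed markers of a mesenchymal breast cancer line lay above the array median, and their summed log2 signal ran from 15.98 to 16.13 over the arrays. Of 9 luminal epithelium markers, 7 passed the filter, and the receptor PGR and TFF1 were above the median on no array. The summed luminal signal ran from 11.81 to 11.85 in scramble, from 11.65 to 11.73 with ETX, from 12.06 to 12.11 in shCPT-1 and from 11.83 to 11.88 in shCPT-2. The sum leans on the brightest of these markers, KRT19, with means of 10.90 in scramble and 11.62 in shCPT-1. In shCPT-1, 1 of the 7 (KRT19) was higher and 3 (SPDEF, GATA3 and FOXA1) were lower than scramble at a limma adjusted p under 0.05. Of the other marker lists 3 of 7 genes for fibroblasts, 3 of 6 for endothelium, 2 of 5 measured for basal or myoepithelial cells and 1 of 5 measured for leukocytes passed the filter. Summed signals of these 4 lists ran from 8.99 to 9.25, from 8.65 to 9.03, from 8.41 to 8.54 and from 7.94 to 8.17, and the endothelial sum was lower in the knockdowns (at most 8.81) than in scramble (at least 8.93). The leukocyte gene PTPRC, the fibroblast genes COL1A2, COL3A1, LUM and FAP, and the endothelial genes CDH5 and VWF were above the median on no array. The part of these markers in the results below was not tested.

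The changes differed by gene and by treatment. SNAI2 was lower in all 3 treated groups, FN1 fell in shCPT-2, and EPCAM fell in shCPT-1. CDH11 fell in shCPT-1 by its brightest probe set, and 2 of its other probe sets fell in both knockdowns. CDH2, near the dim limit, was lower with ETX in a call that leaving out single arrays ended. ZEB2 was higher with ETX and in shCPT-2, by a probe set that passed the filter through the treated groups. Its change in shCPT-1 was of like size and narrowly did not pass. VIM, read by its brightest probe set, passed no test. The span of the 4 group means was 0.98 on the log2 scale for CDH11 and 0.90 for ZEB2, at the 95.7th and 94.6th percentile of tested genes, and 0.06 for VIM, at the 1.46th. Called means an adjusted p (limma, Benjamini-Hochberg) under 0.05 over all 12887 tested genes, with the brightest kept probe set standing for the gene.

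**Figure D1:**
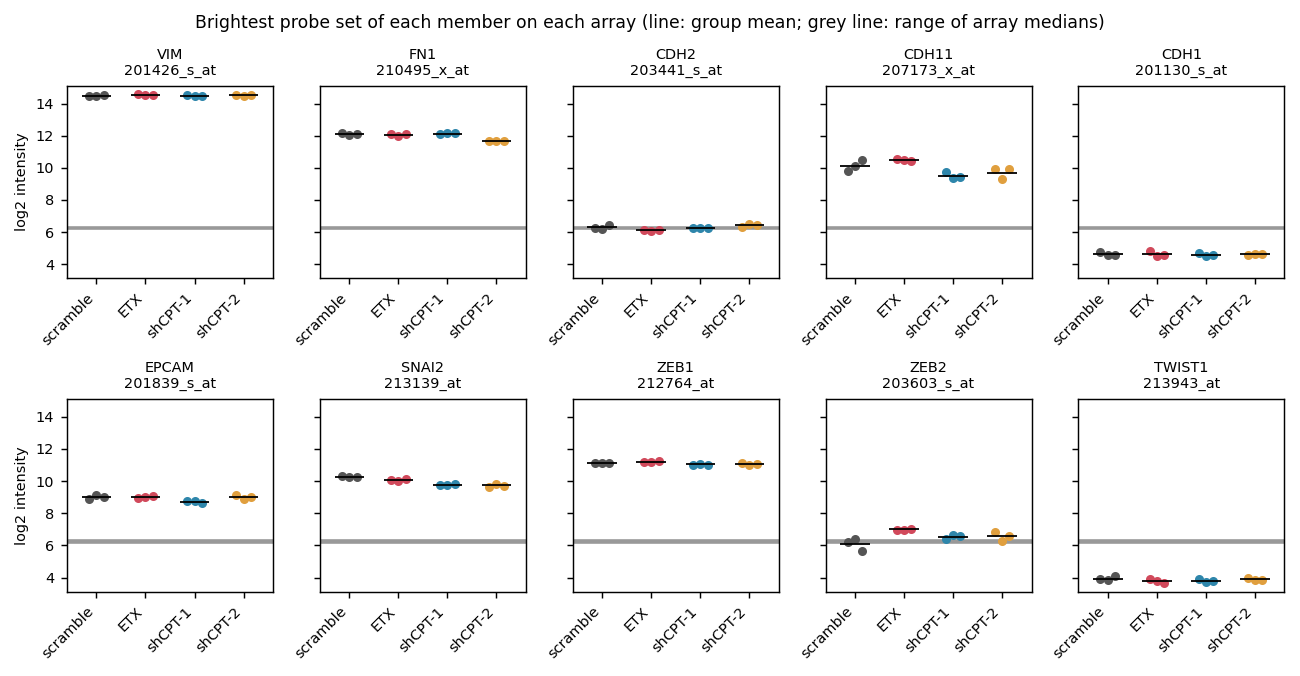
Log2 intensity (y axis) of the brightest probe set of each of the 10 genes on each of the 12 arrays (points), by group (x axis), with group means as black lines and the range of the array medians in grey. CDH1 and TWIST1 lie under the array medians on every array, and SNAI2 is lower in each treated group than in scramble.

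Of the 8 tested members, 3 were called with ETX, 1 higher and 2 lower, where 41.3% of all tested genes were called, 21.9% higher and 19.4% lower. In shCPT-1, 3 of 8 were called, all lower, against 41.1% of all genes, 23.1% higher and 18% lower. In shCPT-2, 3 of 8 were called, 1 higher and 2 lower, against 46.1% of all genes, 25.6% higher and 20.5% lower. The higher call with ETX and in shCPT-2 was ZEB2, whose probe set passed the filter through the treated groups. CDH2, among the lower calls with ETX, passed it through the groups other than ETX. Between the knockdowns 2 of 8 were called, FN1 lower and EPCAM higher in shCPT-2, against 35.5% of all genes, of which 17.7% were higher and 17.8% lower. In shCPT-1 against ETX, 4 of 8 were called, all lower, against 42.7% of all genes, 22.9% higher and 19.8% lower. By the moderated F test over the 4 groups 7 of 8 were called, VIM being the exception, against 69.8% of all genes. Counted in either direction, the member shares fell on both sides of those of all genes, and no pattern of the members is read from so few genes. The share called lower was above that of all genes in every comparison except that between the knockdowns. With ETX that share rests on 2 genes, of which CDH2 passed the filter through the other groups, so nothing is read from it. With 8 genes these differences from the background were not tested. The 3 comparisons against scramble share the scramble arrays. The median absolute log2 change of the 8 members was 0.14 with ETX, 0.19 in shCPT-1 and 0.28 in shCPT-2, beside 0.14, 0.14 and 0.15 over all tested genes.

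**Figure D2:**
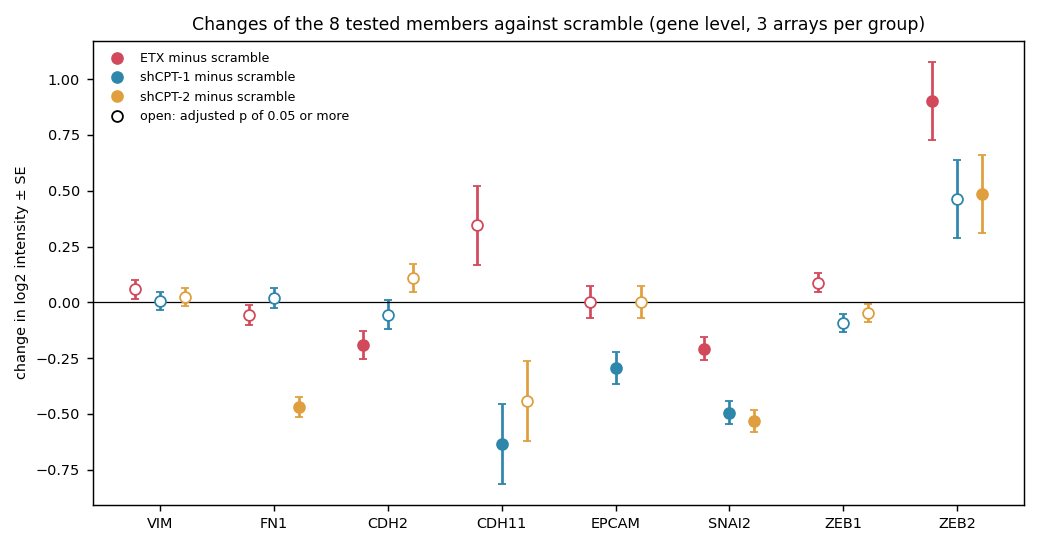
Change in log2 intensity against scramble (y axis, ± SE of the fit) of the 8 tested members (x axis) with ETX, in shCPT-1 and in shCPT-2, from 3 arrays per group. Filled points passed an adjusted p of 0.05: all 3 for SNAI2, ETX and shCPT-2 for ZEB2, and 1 each for FN1, CDH2, CDH11 and EPCAM.

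SNAI2, which encodes Slug, was lower than scramble in all 3 treated groups. Its log2 intensities were 10.29, 10.27 and 10.26 in scramble, 10.04, 10.03 and 10.12 with ETX, 9.76, 9.75 and 9.82 in shCPT-1, and 9.66, 9.84 and 9.72 in shCPT-2. Every treated array lay below every scramble array, and both knockdowns lay below ETX. With ETX the gene fell 1.16-fold (log2 change -0.21 ± 0.05 SE, adjusted p = 0.00656). It fell 1.41-fold in shCPT-1 (-0.49 ± 0.05, adjusted p = 9.64e-06) and 1.45-fold in shCPT-2 (-0.53 ± 0.05, adjusted p = 3.97e-06). The knockdowns differed from each other by -0.04 (95% interval from -0.15 to 0.07, adjusted p = 0.619), and shCPT-1 was lower than ETX by a called margin (-0.29 ± 0.05, adjusted p = 0.000598). SNAI2 has a single probe set here, so no second reading of the gene was available.

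ZEB1, a zinc finger homeobox repressor of CDH1, gave different answers by probe set. The brightest, 212764_at, read 11.14, 11.12 and 11.12 in scramble, 11.20, 11.19 and 11.26 with ETX, 11.02, 11.07 and 11.02 in shCPT-1, and 11.12, 11.03 and 11.09 in shCPT-2. The ETX arrays lay above the scramble arrays and those of both knockdowns below them, in shCPT-2 by less than the second decimal shows, and no comparison with scramble passed (0.09, -0.09 and -0.05, adjusted p = 0.11, 0.0972 and 0.383). Its shCPT-1 level was 0.18 ± 0.04 below its ETX level (adjusted p = 0.00381).

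A second ZEB1 probe set, 212758_s_at, had 9.54, 9.50 and 9.37 in scramble, 9.38, 9.18 and 9.29 with ETX, 9.06, 8.99 and 8.83 in shCPT-1, and 8.23, 8.67 and 8.84 in shCPT-2. With probe sets tested on their own it fell by 0.51 in shCPT-1 (SE 0.13, adjusted p = 0.00819) and by 0.89 in shCPT-2 (SE 0.13, adjusted p = 0.000148), while its -0.19 with ETX did not pass (adjusted p = 0.27). It was also lower in shCPT-2 than in shCPT-1 (-0.38 ± 0.13, adjusted p = 0.0391). Another, 210875_s_at, went the other way, with 5.26, 5.38 and 5.53 in scramble, 6.78, 6.54 and 6.28 with ETX, 6.28, 5.89 and 5.93 in shCPT-1, and 6.41, 5.83 and 6.39 in shCPT-2. It rose by 1.14 ± 0.17 with ETX (adjusted p = 0.000397), by 0.65 ± 0.17 in shCPT-1 (adjusted p = 0.00937) and by 0.82 ± 0.17 in shCPT-2 (adjusted p = 0.00175). That probe set was above the array median on 6 arrays and on no scramble array, so it passed the filter only through the treated groups. This favours a rise over scramble, and nothing is read from its calls. The fourth, 239952_at, was above the median on no array, with values from 5.50 to 5.85. Apart from 210875_s_at, both kept ZEB1 probe sets had lower means in both knockdowns, of which only those of 212758_s_at passed, and they differed in sign with ETX.

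The same split was counted over all genes with several kept probe sets. Of 6173 such genes, 171 (2.77%) had probe sets called in opposite directions in shCPT-1, 284 (4.6%) in shCPT-2 and 273 (4.42%) with ETX. ZEB1 was the 1 member of the 4 with several kept probe sets that was among them, in both knockdowns and not with ETX. Its upward call comes from 210875_s_at, which passed the filter through the treated groups, so nothing is read from it. Of the 18 kept member probe sets tested on their own, 6 were called with ETX, 8 in shCPT-1 and 10 in shCPT-2, where 38.2%, 37.5% and 43.5% of all kept probe sets were. Each of these counts includes 210875_s_at, whose call was favoured by the filter. Between the knockdowns 6 of the 18 were called (31.6% of all), in shCPT-1 against ETX 8 (37.5% of all), and by the F test 16 (66.3% of all).

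**Figure D3:**
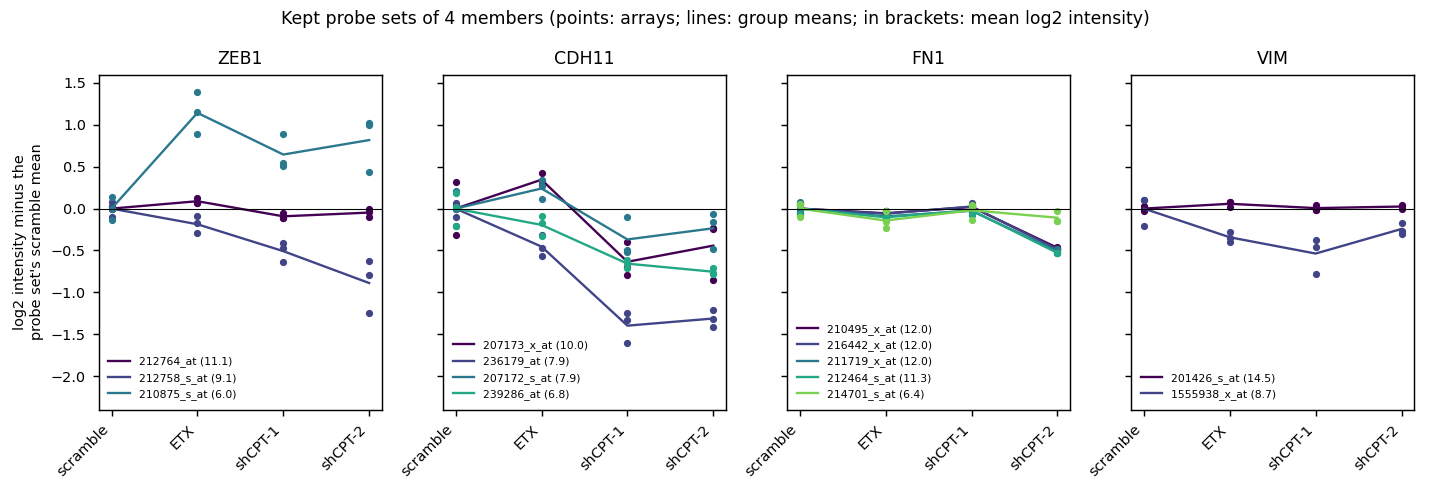
Log2 intensity minus the probe set's own scramble mean (y axis) for each kept probe set of ZEB1, CDH11, FN1 and VIM by group (x axis), with arrays as points and group means as lines. The ZEB1 probe sets diverge, those of CDH11 part with ETX and go down together in the knockdowns, and 4 of the 5 FN1 probe sets overlie each other.

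ZEB2, the paralogue of ZEB1, was read by 203603_s_at, with 6.22, 6.42 and 5.62 in scramble, 6.96, 6.97 and 7.04 with ETX, 6.40, 6.66 and 6.59 in shCPT-1, and 6.82, 6.28 and 6.62 in shCPT-2. All ETX arrays exceeded all others, whereas the knockdown arrays overlapped scramble, whose replicate 3 was the lowest array. Of the 3 scramble arrays 2 lay below their array median, so the sizes that follow are set against a level at the dim limit. The probe set thus passed the filter through the treated groups, where it is high, which favours a rise in the tests that follow. With no filter the ETX call held and the shCPT-2 call ended (adjusted p = 0.0538). ZEB2 rose with ETX (0.90 ± 0.17, adjusted p = 0.00171). It was also higher in the CPT2 knockdown (0.48 ± 0.17, adjusted p = 0.0384), and its 0.46 ± 0.17 in shCPT-1 did not pass (adjusted p = 0.0515). The shCPT-2 call ended without scramble 3 (0.25, adjusted p = 0.138), shCPT-2 1 (0.36, adjusted p = 0.155) or shCPT-2 3 (0.46, adjusted p = 0.0965), or with ETX 1 left out of the shared spread (adjusted p = 0.05). The shCPT-1 change passed without scramble 2 (0.63, adjusted p = 0.0145), shCPT-2 1 or shCPT-2 2 (adjusted p = 0.0467 and 0.0387), and was 0.23 without scramble 3 (adjusted p = 0.184). The ETX change without scramble 3 was 0.67 (adjusted p = 0.0018). The signal was above the array median on 10 of 12 arrays. The other probe sets of ZEB2 did not pass the filter. Of these 228333_at, above the median on 2 arrays, had scramble values of 5.79, 5.78 and 5.70 and values from 5.93 to 6.30 in the 9 treated arrays. The remaining 3 stayed between 3.61 and 4.94 on every array.

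ZEB1 and ZEB2 are the E-box repressors among the members that have a RefSeq promoter window, so the 250 bases before the outermost RefSeq start of each are shown (GRCh38.p14), in lower case with every E-box (CANNTG, searched on both strands) in capitals. ZEB1 lies at chr10:31318167-31318416 on the plus strand and ZEB2 at chr2:144520120-144520369 on the minus strand.
ZEB1: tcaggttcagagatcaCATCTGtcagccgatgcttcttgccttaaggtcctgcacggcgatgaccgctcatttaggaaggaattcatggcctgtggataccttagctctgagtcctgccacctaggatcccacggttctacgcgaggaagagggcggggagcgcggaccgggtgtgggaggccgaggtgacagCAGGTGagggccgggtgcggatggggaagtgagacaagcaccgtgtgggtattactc
ZEB2: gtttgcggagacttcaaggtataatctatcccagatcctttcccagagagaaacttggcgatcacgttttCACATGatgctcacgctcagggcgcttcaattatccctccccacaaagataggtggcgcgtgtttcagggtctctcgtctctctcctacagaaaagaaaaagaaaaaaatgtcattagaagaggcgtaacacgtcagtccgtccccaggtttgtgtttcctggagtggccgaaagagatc
The ZEB1 window holds CATCTG 234 bases before the start and, 57 bases before it, CAGGTG, the reverse complement of CACCTG, the E-box form that Snail and ZEB proteins prefer. The ZEB2 window holds CACATG 180 bases before the start and no CACCTG. The windows of VIM and FN1 hold no E-box. Over 34961 RefSeq windows of this length 17.5% hold CACCTG on either strand and 61.8% hold CANNTG, so the matches are a description of these letters and not of binding. Of the 10 members 5 had a window in the RefSeq table, with 12 windows in all. ZEB1 had 7 of them, which differ in their E-boxes. Another ZEB1 window, at chr10:31318966-31319215, holds 2 CACCTG on either strand, where 2.53% of all windows hold 2 or more. It is the richest in CACCTG of the 7 ZEB1 windows, so this share of single windows does not measure how rare it is.

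TWIST1, a helix-loop-helix inducer of the transition, was above the array median on none of the 12 arrays. Its values were 3.88, 3.83 and 4.11 in scramble and lay between 3.67 and 3.98 on the 9 treated arrays. It was thus not detected above the dim limit in any group, and no change of it can be read.

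CDH1, which encodes E-cadherin, the adherens junction protein of epithelia, was likewise dim in every group. Its probe set 201130_s_at read 4.78, 4.55 and 4.59 in scramble, 4.80, 4.51 and 4.58 with ETX, 4.69, 4.54 and 4.59 in shCPT-1, and 4.59, 4.67 and 4.61 in shCPT-2, so that all groups overlapped. The second, 201131_s_at, lay between 3.44 and 3.64 on all arrays. Tested with no filter, the CDH1 change against scramble was -0.01 with ETX, -0.03 in shCPT-1 and -0.02 in shCPT-2 (adjusted p = 0.952, 0.834 and 0.899). In bulk RNA fewer cells that express a gene and less RNA per cell cannot be told apart.

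EPCAM, an epithelial surface adhesion molecule, was above the median on all 12 arrays. It had 8.90, 9.12 and 9.04 in scramble, 8.97, 9.03 and 9.06 with ETX, 8.76, 8.76 and 8.65 in shCPT-1, and 9.16, 8.90 and 8.99 in shCPT-2. The shCPT-1 arrays lay under all other arrays, and the remaining groups overlapped. In shCPT-1 it fell 1.23-fold (-0.29 ± 0.07, adjusted p = 0.00595). Its change was 0.00 with ETX (95% interval from -0.15 to 0.16) and 0.00 in shCPT-2 (from -0.16 to 0.16). The knockdowns differed from each other (0.29 ± 0.07 higher in shCPT-2, adjusted p = 0.00676), as did shCPT-1 and ETX (-0.30 ± 0.07, adjusted p = 0.00521).

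CDH2, N-cadherin, the cadherin that takes the place of E-cadherin in many mesenchymal cells, lay close to the dim limit and passed the filter with 7 arrays above the median. Its kept probe set read 6.29, 6.21 and 6.43 in scramble, 6.13, 6.05 and 6.16 with ETX, 6.24, 6.24 and 6.27 in shCPT-1, and 6.31, 6.49 and 6.45 in shCPT-2. The ETX arrays were the lowest, and both knockdowns overlapped scramble. All 3 ETX arrays lay below the lowest array median, and the probe set passed the filter through the other groups, so the size of the ETX change is not resolved. The fitted change with ETX was a called fall (-0.19 ± 0.06, adjusted p = 0.0288), and the call ended without scramble 1, scramble 3, ETX 1 or ETX 2 (adjusted p = 0.0546, 0.0995, 0.0591 and 0.105). It also ended with no filter, with centring on array medians, with trend and robust fitting and with only the groups compared (adjusted p = 0.0514, 0.0506, 0.0723 and 0.0615). The changes of -0.06 in shCPT-1 and 0.11 in shCPT-2 did not pass (adjusted p = 0.522 and 0.179), the latter being 0.17 without scramble 3 (adjusted p = 0.0336) and 0.06 without scramble 2 (adjusted p = 0.505). The other CDH2 probe set was above the median on no array (4.51 to 4.76).

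CDH11, OB-cadherin, a cadherin of mesenchymal and bone-forming cells, fell in shCPT-1 by its brightest probe set and in both knockdowns by 2 of the others. Its brightest probe set, 207173_x_at, had 9.83, 10.14 and 10.46 in scramble, 10.56, 10.48 and 10.42 with ETX, 9.74, 9.34 and 9.44 in shCPT-1, and 9.92, 9.28 and 9.90 in shCPT-2. The shCPT-1 arrays lay below all scramble and ETX arrays, while shCPT-2 overlapped scramble. By this probe set it fell 1.55-fold in shCPT-1 (-0.63 ± 0.18, adjusted p = 0.0127), and the -0.44 ± 0.18 in shCPT-2 and 0.35 ± 0.18 with ETX did not pass (adjusted p = 0.0598 and 0.142). The shCPT-1 call ended without shCPT-1 2 (-0.55, adjusted p = 0.0513). The shCPT-2 change passed without scramble 1, shCPT-2 1 or shCPT-2 3 (adjusted p = 0.0198, 0.0442 and 0.0489). It was -0.28 without scramble 3 (adjusted p = 0.22), -0.23 without shCPT-2 2 (adjusted p = 0.242) and -0.08 without the 4 arrays that correlate least with their group (adjusted p = 0.513). The ETX change was 0.50 without scramble 3 (adjusted p = 0.039) and 0.19 without scramble 1 (adjusted p = 0.45). In shCPT-1 CDH11 was 1.97-fold lower than with ETX (-0.98 ± 0.18, adjusted p = 0.000721).

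All 4 CDH11 probe sets were kept, above the median on all 12 arrays, and all had lower means in both knockdowns, by different amounts. The clearest, 236179_at, read 8.77, 8.80 and 8.63 in scramble, 8.42, 8.26 and 8.17 with ETX, 7.13, 7.49 and 7.40 in shCPT-1, and 7.53, 7.32 and 7.42 in shCPT-2. Here all 3 treated groups lay below scramble without overlap, at -1.40 in shCPT-1 (adjusted p = 7.88e-07), -1.31 in shCPT-2 (adjusted p = 7.87e-07) and -0.45 with ETX (adjusted p = 0.00369). The probe set 239286_at fell by 0.66 in shCPT-1 and by 0.75 in shCPT-2 (SE 0.09 each, adjusted p = 0.000148 and 3.69e-05), with -0.19 with ETX (adjusted p = 0.109). The fourth, 207172_s_at, had -0.37 in shCPT-1 and -0.23 in shCPT-2, which did not pass (adjusted p = 0.0573 and 0.2), and 0.24 with ETX (adjusted p = 0.197). Against ETX all 4 were lower in shCPT-1, by -0.98, -0.94, -0.61 and -0.46, and each passed. With ETX against scramble the probe sets disagreed in sign, and only 236179_at was called.

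VIM encodes vimentin, the intermediate filament of mesenchymal cells and the defining protein of this phenotype. Its main probe set, 201426_s_at, read 14.46, 14.48 and 14.51 in scramble, 14.56, 14.56 and 14.50 with ETX, 14.53, 14.47 and 14.47 in shCPT-1, and 14.52, 14.48 and 14.53 in shCPT-2. All groups overlapped, near the top of the scale, where the highest value in the table was 14.81. The change was 0.06 with ETX (95% interval from -0.03 to 0.15), 0.01 in shCPT-1 (from -0.08 to 0.09) and 0.02 in shCPT-2 (from -0.06 to 0.11), and none passed. The second probe set, 1555938_x_at, had 9.06, 9.06 and 8.74 in scramble, 8.60, 8.67 and 8.56 with ETX, 8.17, 8.49 and 8.57 in shCPT-1, and 8.69, 8.78 and 8.65 in shCPT-2. By it VIM fell by 0.34 with ETX (SE 0.11, adjusted p = 0.0235) and by 0.54 in shCPT-1 (SE 0.11, adjusted p = 0.00187), and its -0.24 in shCPT-2 did not pass (adjusted p = 0.0817). The probe sets of VIM thus differ on whether the gene changed.

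FN1, fibronectin, a matrix glycoprotein raised in the transition, fell in shCPT-2 and, by its bright probe sets, passed no test against scramble in the other groups. The probe set that stood for it had 12.17, 12.07 and 12.10 in scramble, 12.09, 11.999 and 12.09 with ETX, 12.10, 12.15 and 12.16 in shCPT-1, and 11.64, 11.65 and 11.65 in shCPT-2. The shCPT-2 arrays lay below all 9 others. The fall was 1.38-fold (-0.47 ± 0.04, adjusted p = 3.58e-06), and shCPT-2 was also 1.4-fold below shCPT-1 (-0.49 ± 0.04, adjusted p = 4.83e-06). The change was -0.06 with ETX (95% interval from -0.15 to 0.04, adjusted p = 0.33) and 0.02 in shCPT-1 (from -0.08 to 0.12, adjusted p = 0.753).

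The FN1 probe sets repeated this pattern. Those at 216442_x_at, 211719_x_at and 212464_s_at changed by -0.48, -0.51 and -0.53 in shCPT-2 (adjusted p = 7.5e-06, 1.1e-05 and 2.35e-06), and none of the 4 bright ones was called with ETX or in shCPT-1. Several of these sets are of kinds that can share oligonucleotide targets, so they are not independent readings. The fifth kept set, 214701_s_at, near the dim limit, changed by -0.11 in shCPT-2 (adjusted p = 0.251). Of the FN1 sets under the filter, 1558199_at read 6.33, 6.13 and 5.82 in scramble, 5.62, 5.39 and 5.50 with ETX, 5.62, 5.78 and 5.92 in shCPT-1, and 5.03, 5.07 and 5.31 in shCPT-2. The ETX and shCPT-2 arrays of that set lay below every scramble array, while shCPT-1 overlapped scramble. The other, 214702_at, stayed between 3.79 and 4.02.

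An RNA quality measure had its highest mean in scramble, with values that overlapped the other groups and a difference that was not tested. Among the actin controls, the log2 signal at the 3′ end exceeded that at the 5′ end by 2.07 ± 0.27 (SD, n = 3) in scramble, 1.75 ± 0.06 with ETX, 1.73 ± 0.23 in shCPT-1 and 1.68 ± 0.23 in shCPT-2. With it as a covariate SNAI2 changed by -0.17, -0.46 and -0.49 with ETX, in shCPT-1 and in shCPT-2 (adjusted p = 0.0403, 0.000107 and 8.32e-05), and FN1 by -0.45 in shCPT-2 (adjusted p = 6.33e-05). EPCAM changed by -0.33 in shCPT-1 (adjusted p = 0.012) and ZEB2 by 1.08 with ETX (adjusted p = 0.00232). CDH11 moved most, to -1.01 in shCPT-1 (adjusted p = 3.87e-05), -0.87 in shCPT-2 (adjusted p = 0.000133) and -0.01 with ETX (adjusted p = 0.952).

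Genes around the members were read from 6 lists. Their counts stand beside shares of all tested genes of 21.9% higher and 19.4% lower with ETX, 23.1% and 18% in shCPT-1, and 25.6% and 20.5% in shCPT-2. Other transcription factors of the transition had 10 of 20 genes tested, and SNAI1, TWIST2, FOXC1, FOXC2, PRRX1 and 5 others were not tested. With ETX 1 was higher and 6 lower (median -0.25, beside -0.01 over all genes), in shCPT-1 3 and 4 (median -0.03), and in shCPT-2 1 and 3 (median -0.07). SOX4, an SRY-box factor linked to the transition, fell in all 3 groups, with changes of -0.73, -0.63 and -1.51 (SE 0.05 each). SOX9, its relative, fell by 0.64 with ETX and rose by 0.32 in shCPT-1, with -0.06 in shCPT-2 (adjusted p = 0.274). ID1, an inhibitor of helix-loop-helix factors, fell by 0.35 with ETX and rose by 1.12 in shCPT-1, with 0.05 in shCPT-2 (adjusted p = 0.602).

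Corepressors and chromatin regulators that act with the E-box repressors had 17 of 18 genes tested, with 4 higher and 9 lower with ETX (median -0.19), 3 and 6 in shCPT-1 (median -0.02) and 5 and 3 in shCPT-2 (median 0.05). CTBP1, a corepressor recruited by ZEB proteins, changed by -0.31, -0.52 and -0.55 in that order (SE 0.05 each, adjusted p = 0.000681, 8.03e-06 and 3.5e-06). EZH2, the methyltransferase of Polycomb complex PRC2, fell by 0.39 with ETX and by 0.27 in shCPT-1 and was 0.12 higher in shCPT-2 (adjusted p = 0.0497). SUV39H1, which methylates histone H3 in heterochromatin, fell by 0.62 with ETX and by 0.24 in shCPT-1, with -0.05 in shCPT-2 (adjusted p = 0.531).

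Of 33 epithelial identity genes 19 were tested, among the untested ESRP1, ESRP2, GRHL2, OVOL2 and RAB25. With ETX 2 were higher and 4 lower (median -0.03), in shCPT-1 6 and 1 (median 0.11) and in shCPT-2 7 and 4 (median -0.01). The ETX count of 6 called was 10 without ETX 3. KRT19, a simple-epithelium keratin, rose by 0.73 in shCPT-1 and by 0.43 in shCPT-2 (SE 0.05 each), with -0.02 with ETX (adjusted p = 0.755). KRT8, the partner keratin of KRT18, rose by 0.28 in shCPT-1 and fell by 0.46 with ETX and by 0.20 in shCPT-2. SPINT2, a membrane inhibitor of serine proteases, fell by 0.38 in shCPT-2, with 0.05 and 0.09 in the others.

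Components and partners of the cadherin-catenin complex had 11 of 15 genes tested. In shCPT-1 7 were higher and 0 lower (median 0.16), in shCPT-2 6 and 2 (median 0.18), and with ETX 1 and 2 (median 0.01). The 7 called in shCPT-1 were 3 without probe set kinds that can share oligonucleotide targets, a setting that can also leave fewer listed genes tested. The count of 8 called in shCPT-2 was 5 without shCPT-2 1 and 4 with the actin covariate, and the 3 with ETX were 5 without scramble 3 and 1 with that covariate. JUP, plakoglobin, which links cadherins to the cytoskeleton, rose by 0.85 ± 0.10 in shCPT-1 (adjusted p = 3.63e-05) and by 0.27 ± 0.10 in shCPT-2 (adjusted p = 0.0476), with -0.25 with ETX (adjusted p = 0.0692). NECTIN3, an immunoglobulin-type junction protein, rose by 0.71 in shCPT-1 and by 0.38 in shCPT-2, with 0.12 with ETX (adjusted p = 0.157). ADAM10, the protease that sheds cadherin ectodomains, rose by 0.37 and 0.18 in the knockdowns, with 0.05 with ETX (adjusted p = 0.343).

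Other cadherins were mostly dim, with 5 of 18 tested, and 0 higher and 2 lower with ETX, 0 called in shCPT-1 and 0 and 1 in shCPT-2. These counts are of so few genes that leaving out single arrays gave 1 with ETX and 0 to 2 in shCPT-2. CDH24 fell by 0.22 with ETX (adjusted p = 0.0334) and CDH22 by 0.20 with ETX and by 0.16 in shCPT-2 (adjusted p = 0.00498 and 0.0133). CDH3, P-cadherin, was called by the F test (adjusted p = 0.0446) but in no single comparison with scramble (-0.03, 0.13 and 0.17).

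Mesenchymal cytoskeleton and matrix genes had 32 of 36 tested, with 9 higher and 3 lower with ETX (median 0.04), 6 and 10 in shCPT-1 (median -0.08) and 7 and 9 in shCPT-2 (median -0.07). The 12 called with ETX were 7 without scramble 1, 6 without scramble 2, 7 without ETX 2 and 6 with the actin covariate. The members of this list moved apart. LOX, which crosslinks collagen, rose by 0.47 with ETX and by 1.16 in each knockdown, while S100A4, a calcium-binding protein of motile cells, rose by 1.33 in shCPT-1 and fell by 1.20 in shCPT-2 (SE 0.06 each), with -0.08 with ETX (adjusted p = 0.321). TAGLN, transgelin, an actin-binding protein, rose by 0.30 with ETX and by 1.06 in shCPT-2 and fell by 0.48 in shCPT-1.

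**Figure D4:**
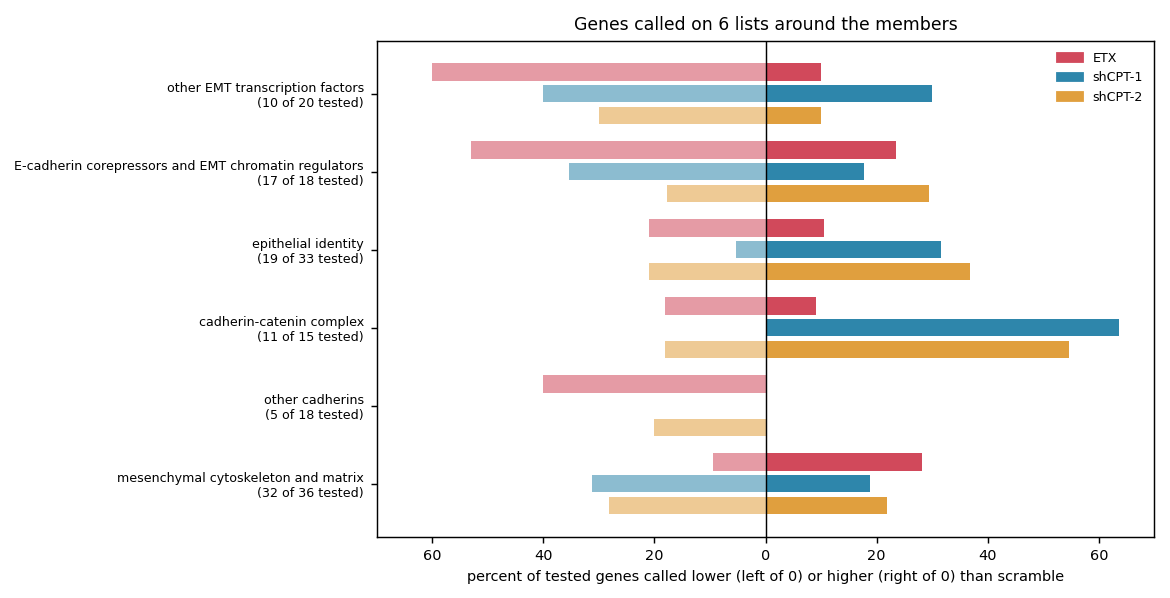
Percent of tested genes (x axis) called lower (left, pale) or higher (right, dark) than scramble on 6 gene lists (y axis) with ETX and in both knockdowns. The cadherin-catenin list has 7 of 11 genes higher and 0 lower in shCPT-1, and the list of other transcription factors has 6 of 10 lower with ETX, where 23.1% and 18% of all genes in shCPT-1, and 21.9% and 19.4% with ETX, were higher and lower.

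The genes whose values tracked a member most closely were taken from the 2798 tested genes whose group means span at least 0.5, by Pearson's r over the same 12 arrays, whose points share the 4 groups. For FN1 they were HPCAL1 (0.991), FOXN3 (0.990) and complement C3 (0.983), all lowest in shCPT-2. For SNAI2 they were MOK, PDZD11 and RBM41 (0.990 each), with both knockdowns lowest and ETX between. CDH11 was followed by PJA1 (0.943), TMEM131 (0.941) and ACSL4 (0.937), and the main ZEB1 probe set by LGR4 (0.954), CASP4 (0.949) and ZXDB (0.940). EPCAM was followed by THAP12 (0.910), SUSD5 (0.886) and AOX1 (0.860), ZEB2 by ERCC4 (0.915), CEP120 (0.900) and MXD1 (0.891), and CDH2 by CBFB (0.891), TCF19 (0.891) and DUS1L (0.874).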

How the data were processed

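Per the submitters' processing notes the authors used RMA, and what they deposited is a linear intensity for each probe set on every array. RMA settings and its version were not given in the sources used. The deposited intensities were turned to log2 here. Of 54675 probe sets 62 were controls, 41091 had 1 gene symbol, 1801 several and 11721 none, with symbols updated through gene IDs. A probe set was kept when above its array's median (74.9 to 77.2 intensity units before log2) on at least 3 arrays, leaving 23565 with 1 symbol and 12887 genes, each read by its kept probe set with the highest mean. Groups were fitted with limma 3.58.1 (R 4.3.3; lmFit and eBayes, two-sided, on all 12 arrays with no covariate), which left 8 residual degrees of freedom plus 4.117 from the prior. Every member probe set was also tested on its own. Exact permutation of 3 against 3 arrays was not run, its smallest p being 0.1. The number of arrays limits the precision. The fit was tested on simulated data.

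Members and lists were chosen with earlier results of these data known. All 10 members are named, with up to 3 genes per list by the smallest F test p. Alternatives were no filter or the 25th percentile, the mean of probe sets, each probe set, no cross-hybridising kinds, quantile normalization, median centring, eBayes with trend and robust, array weights, only the groups compared, a replicate block, the actin covariate, an adjusted p of 0.01, and leaving out arrays. Figures were drawn with matplotlib 3.10.9.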

Additional observations from a re-analysis of the deposited data

How the results depend on the processing

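The calls for SNAI2 in all 3 comparisons with scramble, FN1 and its difference between the knockdowns, EPCAM in shCPT-1, and ZEB2 with ETX held under every alternative that gave these genes a value, the adjusted p of 0.01 apart, which was applied to counts only. The ZEB2 probe set passed the filter through the treated groups, which favours a rise, and nearly all alternatives read that same probe set. Without cross-hybridising kinds, ZEB2 is read by 228333_at, which did not pass the filter of the report (0.40 with ETX). With each probe set on its own 6 members were called with ETX in place of 3, and 5 in each knockdown in place of 3. Of these, ZEB1 with ETX was called only by 210875_s_at, which passed the filter through the treated groups. With array weights 6, 5 and 5 members were called in that order, 4 between the knockdowns in place of 2, and 8 in shCPT-1 against ETX in place of 4. With quantile normalization again 5 were called in shCPT-1. Without probe set kinds that can cross-hybridise, which leaves no kept value for several members, 0 were called between the knockdowns and 4 by the F test in place of 7. Leaving out single arrays gave 2 or 3 with ETX, 2 to 4 in each knockdown, and 4 or 5 in shCPT-1 against ETX. Of changes called in either fit, those that turned in sign were CDH11 with ETX, -0.45 without cross-hybridising kinds (adjusted p = 0.00341), and VIM in shCPT-1, -0.27 with the mean of its probe sets (adjusted p = 0.00186), where other probe sets enter. A further 35 of 940 member values changed sign with no call in either fit. List counts also moved without cross-hybridising kinds, where epithelial genes called with ETX were 2 in place of 6 and corepressors 7 in place of 13, and with array weights, where corepressors in shCPT-2 were 14 in place of 8. Without cross-hybridising kinds, cadherin-catenin genes called in shCPT-1 were 3 in place of 7, and epithelial genes called in shCPT-2 were 5 in place of 11. Dropping those kinds can also take listed genes out of the test. The genes left were not counted, so lost calls and lost genes are not told apart. The labels do not say whether the replicate numbers pair the arrays. Correlations of same-numbered deviations ran from -0.46 to 0.33 over all pairs of groups, and were 0.09, 0.28 and 0.33 between scramble and ETX. With the replicate block ZEB2 in shCPT-2 no longer passed (0.48, adjusted p = 0.0536), while the counts were 3, 3 and 2 against scramble. No scaling moved the median of all genes by more than 0.1. Genes near the array median, CDH2 and ZEB2 among the members, are limited by signal over background.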
